A study of Mus musculus with 7 samples.

Results

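The integrin and laminin subunit genes are the rows of the count table whose symbol names an integrin alpha chain, an integrin beta chain or a laminin alpha, beta or gamma chain. There are 38 such rows among 34745, namely 19 alpha subunits, 8 beta subunits and 11 laminin chains. They carry 37 symbols, because Itgam is listed under 2 gene IDs. Expression was measured by RNA sequencing in 3T3-L1 cells (genotype labelled WT), a line of mouse embryonic fibroblasts that can be induced to become fat cells, used at days 8 to 10 after induction with insulin, IBMX and dexamethasone. In 6 groups the cells received exosomes for 48 h, which differed in their source: white fat of the groin (inguinal, iWAT), white fat of the viscera (vWAT) or brown fat (BAT), taken from wild-type mice on a low-fat diet (LFD) or a high-fat diet (HFD). Groups are named by diet, depot and Exos, so that HFD-vWAT-Exos stands for cells given vesicles from visceral fat of mice on the high-fat diet. A control group had no treatment per the labels, while legends of the study mention PBS, so an effect of the vehicle cannot be told apart from that of the vesicles in ratios to the control. The number of mice behind each exosome preparation was not stated in the sources used here.

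Integrins are receptors made of 1 alpha and 1 beta chain that anchor cells to the matrix and pass signals through adaptor proteins at focal adhesions. The alpha chain largely sets the ligand: some pairs read the RGD motif of fibronectin and vitronectin, others bind collagens or laminins, and a leukocyte group binds counter-receptors on other cells. Laminins are cross-shaped trimers of 1 alpha, 1 beta and 1 gamma chain that lie in basement membranes, and in fat a sheath of laminin surrounds each mature adipocyte. During adipogenesis cells are known to move from a fibronectin-rich matrix toward such a sheath.

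Each group had 1 library, so differences between single groups could not be checked with replicates, and intervals in parentheses are 95% counting intervals that take reads as independent. Total counts were 13.5 M in LFD-vWAT-Exos and 17.8 to 24.3 M in the other 6 libraries. One library, LFD-vWAT-Exos, differed widely from the rest: 2319 of 12935 genes (17.9%) were at least 2-fold away from every other library in the same direction, 7.44% higher and 10.5% lower, and mitochondrially encoded genes held 1.10% of its counts against 2.19 to 2.60% elsewhere. Summed marker levels of several cell types moved with it, though not every marker did. The sum of 7 fibroblast markers was 9124 CPM there and 22543 to 28558 CPM in the other libraries. Col1a1, Col1a2, Thy1, Dcn and Dlk1 were lower there, while Pdgfra had 1154 against 1190 to 1329 CPM and Pdgfrb 288 against 287 to 407 CPM. The sum of 9 adipocyte markers was 313 CPM against 1114 to 1371 CPM. Lpl had 216 against 926 to 1212 CPM and Fabp4 75.0 against 78.4 to 174 CPM, while Pparg was highest there, at 21.5 against 12.5 to 14.2 CPM. The label of mature adipocytes was not borne out by the defining markers: 6 of the 9, among them Adipoq, Plin1 and Lep, stayed below 1 CPM in every library, and the sum came from Lpl, Fabp4 and Pparg. In bulk RNA, fewer cells of a type and less RNA per cell cannot be told apart. CPM here means read counts relative to the library total, corrected with TMM factors. What part the state of this library or the makeup of the culture has in the results was not tested, and each result is therefore given for the other 6 libraries as well.

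Levels of different genes were compared per length, with the FPKM of the authors, which divides fragment counts by the length of the exons and by library size. Of the 38 members, 27 reached 1 CPM in at least 1 library, 20 reached it in every library and 8 stayed above 100 CPM throughout. Among alpha subunits, Itga5, the chain of the fibronectin receptor, was the most abundant in each library, at 82.7 to 98.5 FPKM. It held 60.6 to 67.2% of all alpha subunit FPKM. Itga11, a receptor chain for fibrillar collagen, followed at 14.0 to 24.0 FPKM, Itgav, which reads RGD motifs with several beta partners, at 10.7 to 15.2 FPKM, and Itga1, another collagen-binding chain, at 5.71 to 10.0 FPKM. The RGD-binding chains (Itga5, Itgav, Itga8 and Itga2b) together made up 72.6 to 78.4% of alpha subunit FPKM, the collagen-binding chains 14.5 to 22.5% and the laminin-binding chains (Itga3, Itga6 and Itga7) 4.50 to 6.98%. The leukocyte chains held 0.0191 to 0.304%.

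Among beta subunits, Itgb1, the common partner of most alpha chains, stood at 182 to 231 FPKM and held 69.0 to 72.8% of beta subunit FPKM. Itgb5, which pairs with the alphav chain as a vitronectin receptor, stood at 63.3 to 86.4 FPKM, and Itgb3, the other classical alphav partner, at 5.95 to 9.11 FPKM. The order Itgb1, Itgb5, Itgb3 held in all 7 libraries. High laminin levels were limited to 4 genes. Lamb1 stood at 47.0 to 95.3 FPKM, Lamc1, the gamma chain of most laminins, at 33.6 to 65.5, Lama4 at 17.5 to 53.8 and Lamb2 at 23.8 to 37.5 FPKM. These chains belong to laminin-411 and laminin-421, trimers known from vessels and from fat. Lama4 made up 99.2 to 99.6% of laminin alpha chain FPKM, and the set of Lama4, Lamb1, Lamb2 and Lamc1 made up 97.6 to 99.5% of all laminin FPKM.

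**Figure D1:**
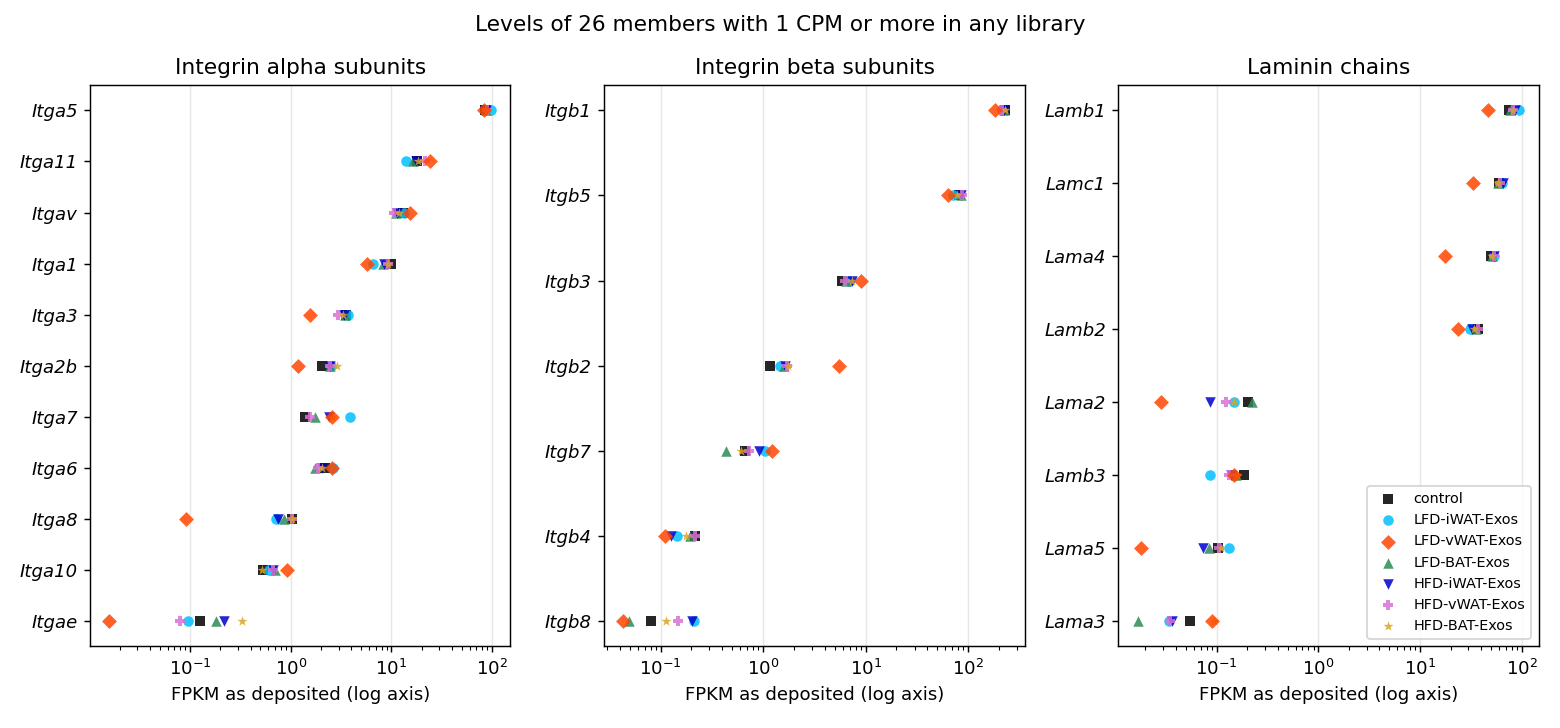
FPKM as deposited (log axis) of 26 members with at least 1 CPM in any library, 1 point per library (n = 1 per group), in panels for alpha subunits, beta subunits and laminin chains. Itga5, Itgb1, Lamb1, Lamc1 and Lama4 are at the top of their panels, and the diamonds of LFD-vWAT-Exos lie away from the other points for Itga8, Itgae, Itgb2, Lama4, Lama2 and Lama5.

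The 11 rows below 1 CPM in every library included most integrins of blood cells and several epithelial chains. Itgal, the alpha chain of LFA-1, reached 17 counts. Itga2, a collagen receptor chain of epithelia and platelets, reached 10 counts, and Lamc3, a gamma chain of restricted distribution, reached 12. The largest count was 5 and 2 for the Itgam rows (ENSMUSG00000108596 and ENSMUSG00000030786), 2 each for Itgad, Itgax and Itgb6, and 1 each for Itga4, Itga9 and Lama1. Itgam, Itgad and Itgax mark myeloid cells. With 3 counts as the floor, a library in which a gene has no read allows it up to 0.122 to 0.234 CPM. Itgal reached 0.775 CPM in HFD-BAT-Exos, Lamc3 0.665 CPM in HFD-iWAT-Exos and Itga2 0.451 CPM in the control, which is above that floor. The other rows were at or near the limit of detection. The Itgam rows share 68.3 and 77.9% of their 31-base words with other genes in the GENCODE M21 annotation, Itgad 26.3% and Itga10 31.8%, and the counts of these 4 rows are uncertain for that reason.

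Among leukocyte chains Itgb2 had the highest level. Itgb2, the partner of Itgal, Itgam, Itgax and Itgad on white blood cells, had 5.41 CPM in the control, 6.65 in LFD-iWAT-Exos, 26.8 in LFD-vWAT-Exos, 7.34 in LFD-BAT-Exos, 7.43 in HFD-iWAT-Exos, 7.96 in HFD-vWAT-Exos and 8.20 in HFD-BAT-Exos. The LFD-vWAT-Exos library was thus the only high one, and it was 3.27 to 4.96 times the others. Against the control, the ratio was 4.96 (4.02 to 6.16), and HFD-vWAT-Exos lay 3.37-fold (2.80 to 4.07) below LFD-vWAT-Exos. Its alpha partners were not seen at a like level: in that library Itgal, Itgax and Itgad had 0 counts, and the Itgam rows had 1 and 0. Of 13 leukocyte markers, 8 stayed below 1 CPM everywhere, Tyrobp had no read, and Ptprc, which encodes CD45, stayed at or under 0.234 CPM. The summed leukocyte marker level was nevertheless 34.2 CPM in LFD-vWAT-Exos against 10.4 to 15.2 CPM, carried by Cd68 at 13.9 CPM (3.47 to 6.32 elsewhere) and Csf1r at 11.7 CPM (0.541 to 1.09 elsewhere). The other markers to reach 1 CPM did not rise in this way. Cd53 had 3.28 against 1.06 to 3.16 CPM and Lyz2 4.52 against 3.05 to 5.03 CPM. Coro1a was lowest there, at 0.312 against 0.575 to 1.05 CPM.

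The remaining leukocyte chains were scarce. Itgb7, the beta chain of gut-homing lymphocyte integrins, ranged from 1.19 CPM in LFD-BAT-Exos to 3.59 CPM in LFD-vWAT-Exos. Itgae, its alpha partner on intraepithelial lymphocytes, had 0.586 CPM in the control, 0.446 in LFD-iWAT-Exos, 0.0780 in LFD-vWAT-Exos, 0.841 in LFD-BAT-Exos, 0.998 in HFD-iWAT-Exos, 0.373 in HFD-vWAT-Exos and 1.55 in HFD-BAT-Exos. The HFD-BAT-Exos library was the highest, 2.64-fold (1.36 to 5.46) above the control, on 34 against 13 counts. Itgae was the only member apart in that comparison, where 282 of 12405 genes (2.27%) were apart. Of this pair only HFD-BAT-Exos reached the minimum of 1 CPM, so Itgae could be called only as higher.

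A gene was counted as apart between a pair of libraries when they differed at least 2-fold (on the log2 scale, prior count of 2) with a counting interval that left out equal levels. Genes entered with 1 CPM or more in at least 1 of the pair. A gene that reached it in only 1 of them could be called only as higher there. The question behind the first 3 pairs is how vesicles of obese mice compare with those of lean mice from the same depot. For vWAT, 8 of 26 members were apart, against 3750 of 12619 genes (29.7%). Of these 8, 5 were higher with HFD-vWAT-Exos, where 17.6% of all genes were, and 3 were lower, where 12.1% of all genes were. The median log2 ratio was 0.26 over the members and 0.05 over all genes. For iWAT, 0 of 25 members were apart against 315 of 12424 genes (2.54%). For BAT, 2 of 27 members were apart, both higher with HFD-BAT-Exos, against 243 of 12457 genes (1.95%) in either direction, 0.931% higher and 1.02% lower. The share of members was thus near the background for vWAT at this minimum of 1 CPM. It was lower under FPKM (7.69% of members against 16.0% of all genes) and with a minimum of 10 CPM (17.6% against 26.1%). The counts for the other depots were too small to read against the background. In the vWAT pair Itga8, Lama2, Lama5 and Itgb8 reached 1 CPM only in HFD-vWAT-Exos, and Lama3 only in LFD-vWAT-Exos. In the BAT pair Lama3 and Itgb8 reached it only in HFD-BAT-Exos, so both could be called only as higher there.

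**Figure D2:**
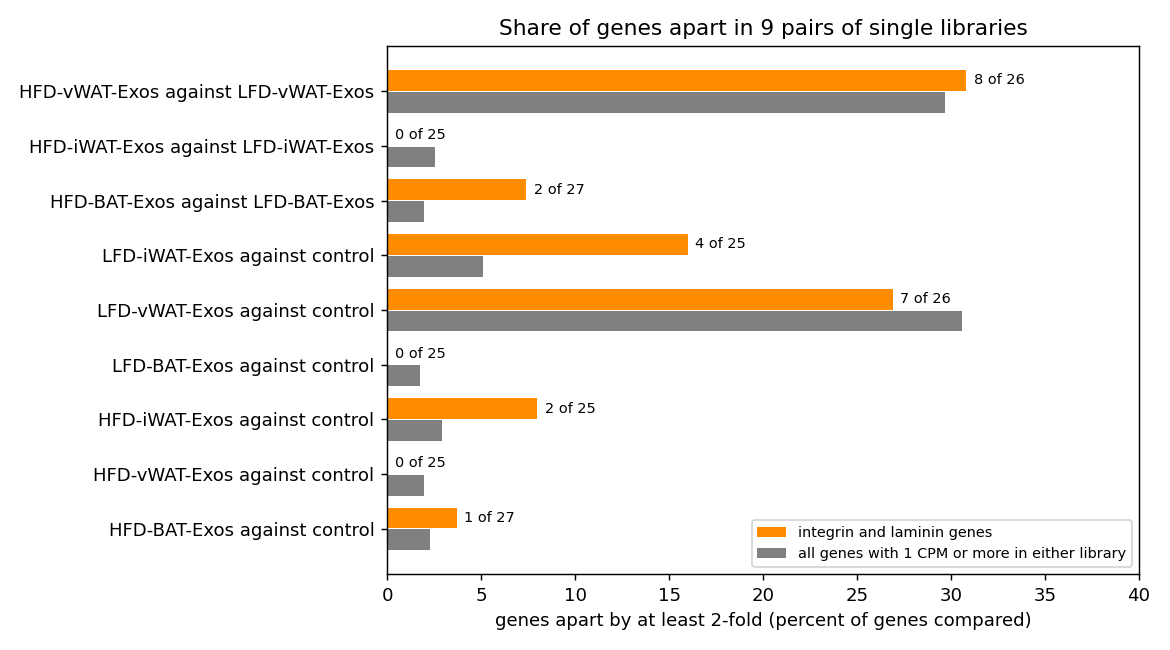
Percent of genes apart by at least 2-fold in 9 pairs of single libraries, for the integrin and laminin genes (orange, with the number apart of the number compared) and for all genes with 1 CPM or more in either library (grey). Both pairs that hold the LFD-vWAT-Exos library have the longest bars, at 30.8 and 26.9% of members and 29.7 and 30.6% of all genes.

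Of the integrin chains low in LFD-vWAT-Exos, only Itga8 was counted as apart in all 6 pairs with that library. Itgae also had log2 ratios of -3.23 to -1.42 to the other libraries, on 1 count, but only HFD-BAT-Exos reached 1 CPM for it. Its counting intervals against LFD-iWAT-Exos and HFD-vWAT-Exos included equal levels. Itga8 encodes the alpha8 chain, a receptor for nephronectin and other RGD ligands that is found on smooth muscle and mesenchymal cells. Its level was 9.83 CPM in the control, 6.93 in LFD-iWAT-Exos, 0.936 in LFD-vWAT-Exos, 8.32 in LFD-BAT-Exos, 7.26 in HFD-iWAT-Exos, 9.92 in HFD-vWAT-Exos and 9.89 in HFD-BAT-Exos. The 12 counts in LFD-vWAT-Exos compare with 131 to 218 in the others. HFD-vWAT-Exos was 10.6-fold (5.94 to 20.8) above LFD-vWAT-Exos, and among the other 6 libraries the highest was 1.43 times the lowest.

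Itga3, a laminin-binding chain, had 23.6 CPM in the control, 24.6 in LFD-iWAT-Exos, 10.9 in LFD-vWAT-Exos, 22.8 in LFD-BAT-Exos, 22.3 in HFD-iWAT-Exos, 20.1 in HFD-vWAT-Exos and 22.2 in HFD-BAT-Exos. It was lowest in LFD-vWAT-Exos, 2.16-fold (1.79 to 2.62) below the control, and past the 2-fold limit in 5 of 6 pairs with that library. Itga2b, the platelet fibrinogen receptor chain, had 9.98 CPM in LFD-vWAT-Exos and 16.4 to 23.3 CPM elsewhere, and was past the limit in 1 of 6 pairs. Of 7 platelet markers, 4 were below 1 CPM in every library, Gp9 among them with no read, and Gp1bb (2.11 to 4.65 CPM), Ppbp (1.48 to 2.55 CPM) and Gp5 (0.512 to 1.37 CPM) were seen. The summed platelet marker level was lowest in LFD-vWAT-Exos, at 4.91 CPM against 6.57 to 8.76 CPM, and its part in the Itga2b level was not tested.

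The 6 integrin chains above 50 CPM in that library were past the limit in 0 of 6 pairs with it. Of all genes with 10 CPM or more in either library, 24.6 to 26.6% were apart in each of these pairs. The chains were taken by their level in LFD-vWAT-Exos itself, which leaves out any that fell below 50 CPM there. Itgav was 1.23 to 1.49 times, Itgb3 1.31 to 1.63 times and Itga11 1.18 to 1.83 times their levels in the other libraries. Itgb1 was lower, at 1085 CPM against 1202 to 1305, and Itgb5 too, at 307 against 324 to 398 CPM. Itga5, at 381 CPM against 369 to 425, lay within the range of the others. Members outside the range of the other 6 libraries numbered 24 of 27, 9 above and 15 below, but 79.9% of all genes were outside as well.

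**Figure D3:**
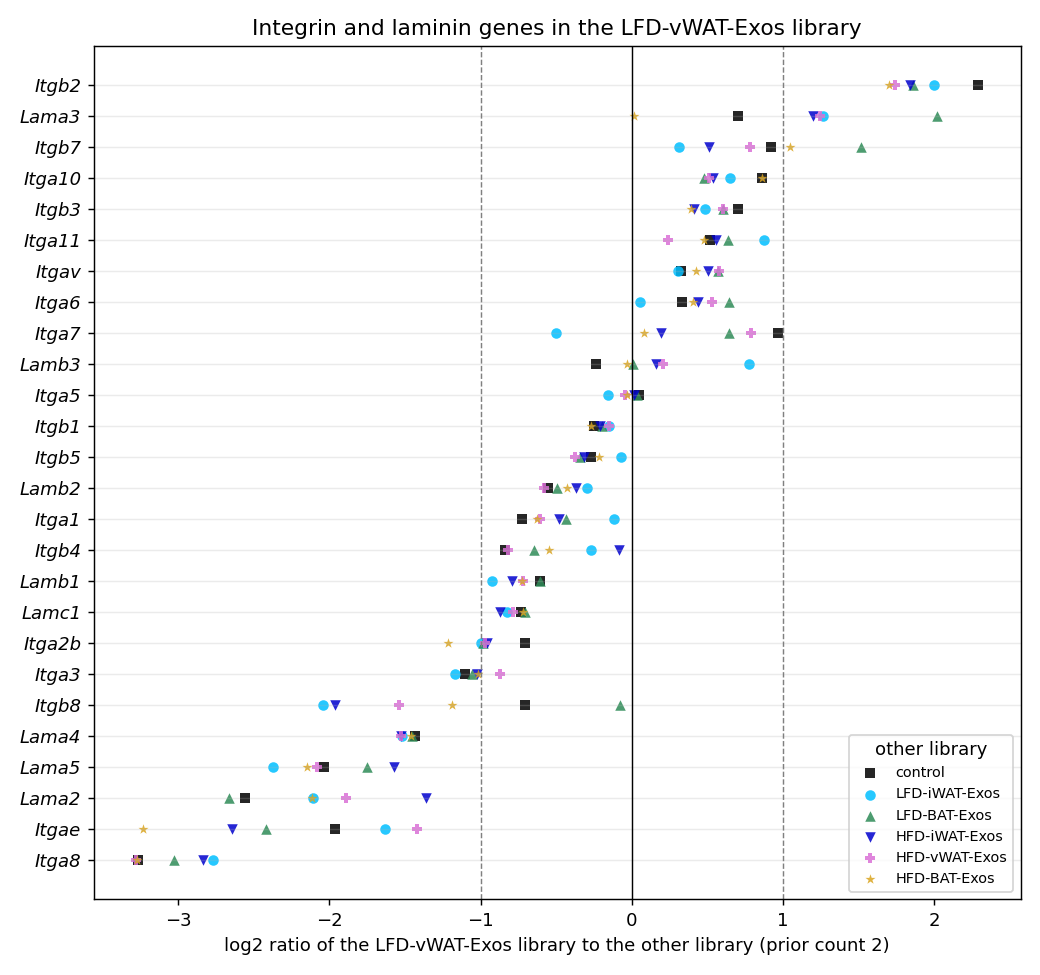
Log2 ratio (prior count of 2) of the LFD-vWAT-Exos library to each of the other 6 libraries for 26 members at 1 CPM or more in any library, 1 point per pair, with dashed lines at 2-fold. Itgb2 is past the line on the high side in all 6 pairs, and Itga8, Itgae, Lama2, Lama4 and Lama5 are past it on the low side in all 6. Itgae and Lama5 are not counted as apart in all 6, since neither library reaches 1 CPM in some of their pairs. For Itgae, the counting intervals against LFD-iWAT-Exos and HFD-vWAT-Exos also include equal levels.

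Of 9 laminin chains compared, 3 were apart and lower in LFD-vWAT-Exos than in the control and 1 was higher, where 17.4% of all genes were lower and 13.2% higher. The summed laminin level was 1478 CPM there against 2574 to 2872 CPM in the other libraries. The integrin sum was 2354 CPM there against 2426 to 2544 CPM. Lama4, the alpha chain of the main trimers, had 733 CPM in the control, 776 in LFD-iWAT-Exos, 271 in LFD-vWAT-Exos, 744 in LFD-BAT-Exos, 782 in HFD-iWAT-Exos, 781 in HFD-vWAT-Exos and 747 in HFD-BAT-Exos. The other 6 libraries lay within 1.07 times of each other, and LFD-vWAT-Exos was 2.70 to 2.89-fold below them. HFD-vWAT-Exos was 2.88-fold (2.77 to 2.99) above LFD-vWAT-Exos. The chains that join Lama4 differed by less than 2-fold: HFD-vWAT-Exos exceeded LFD-vWAT-Exos 1.65-fold (1.61 to 1.69) for Lamb1, 1.50-fold (1.43 to 1.57) for Lamb2 and 1.72-fold (1.67 to 1.78) for Lamc1. Lama4 accordingly held 14.0% of laminin FPKM in LFD-vWAT-Exos and 21.7 to 22.9% elsewhere.

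Lama2, the alpha chain of muscle and nerve laminin, had 3.70 CPM in the control, 2.67 in LFD-iWAT-Exos, 0.546 in LFD-vWAT-Exos, 3.98 in LFD-BAT-Exos, 1.55 in HFD-iWAT-Exos, 2.28 in HFD-vWAT-Exos and 2.69 in HFD-BAT-Exos. The LFD-vWAT-Exos library, with 7 counts, was the lowest, and HFD-vWAT-Exos was 4.18-fold (1.88 to 10.9) above it. HFD-iWAT-Exos was the lowest of the other 6, 2.38-fold (1.53 to 3.80) below the control. The summed level of 7 skeletal muscle markers was also lowest in LFD-vWAT-Exos, at 7.41 CPM against 13.9 to 17.4 CPM. That low sum was carried by Tnnt3, at 0.468 against 7.16 to 10.6 CPM. Scarce Mylpf was lower too, at 0.156 against 0.361 to 0.721 CPM. Des, the other muscle marker to reach 1 CPM, was not low there, at 6.55 against 5.35 to 6.77 CPM. Nor was the sum of 5 Schwann cell markers, at 3.74 against 2.59 to 4.42 CPM. What part muscle or nerve cells have in the Lama2 level was not tested. Lama5, a widespread alpha chain of mature basement membranes, had 1.26 CPM in the control, 1.62 in LFD-iWAT-Exos, 0.234 in LFD-vWAT-Exos, 1.02 in LFD-BAT-Exos, 0.887 in HFD-iWAT-Exos, 1.30 in HFD-vWAT-Exos and 1.37 in HFD-BAT-Exos. LFD-vWAT-Exos was again the lowest, on 3 counts, and HFD-vWAT-Exos was 5.57 times as high with a wide interval (1.72 to 28.6).

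Lama3 went the other way. Lama3, an alpha chain of epithelial laminins, had 0.586 CPM in the control, 0.365 in LFD-iWAT-Exos, 1.01 in LFD-vWAT-Exos, 0.177 in LFD-BAT-Exos, 0.388 in HFD-iWAT-Exos, 0.373 in HFD-vWAT-Exos and 1.00 in HFD-BAT-Exos. It was high in LFD-vWAT-Exos and HFD-BAT-Exos, on 13 and 22 counts. HFD-BAT-Exos was 5.67-fold (1.92 to 22.6) above LFD-BAT-Exos, and HFD-vWAT-Exos 2.72-fold (1.05 to 7.58) below LFD-vWAT-Exos. Lamb3, a beta chain of epithelial laminin, stayed between 0.689 and 1.49 CPM, and the 7 epithelial markers were all below 1 CPM in every library, with a summed level of 0.390 CPM in LFD-vWAT-Exos and 0.140 to 0.501 CPM elsewhere.

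Promoters of Itga8, Lama2 and Lama5, which were among the 5 members lower in LFD-vWAT-Exos than in the control, are shown with that of Itgb8. Itgb8 was not apart in that comparison, but it too was lowest in LFD-vWAT-Exos and apart in 4 of 6 pairs with that library. The sequences at their start sites can thus be compared. Itga3 and Lama4, the others of the 5, are not shown, and Lama4 has no entry in the table used. Of 37 member symbols, 23 matched the RefSeq promoter table (build GRCm38.p6). The 250 bases before the annotated start are given 5′ to 3′, with matches in capitals. Matches were sought on both strands for an AP-1 site (TGANTCA, in 6.75% of the 32851 promoter windows of this length), a TEAD site (GGAATG, 12.6%), a GC box (GGGCGG, 32.7%), a CCAAT box (CCAAT, 33.8%) and a TATA box (TATAAA, 12.4%), and no match overlapped one of another motif.
Itga8 promoter, chr2:12301945-12302194, minus strand: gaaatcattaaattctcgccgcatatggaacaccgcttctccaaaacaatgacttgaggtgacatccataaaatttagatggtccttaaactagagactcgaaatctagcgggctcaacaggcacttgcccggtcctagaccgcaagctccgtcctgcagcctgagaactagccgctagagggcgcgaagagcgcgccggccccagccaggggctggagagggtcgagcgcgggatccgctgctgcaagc
Lama2 promoter, chr10:27616943-27617192, minus strand: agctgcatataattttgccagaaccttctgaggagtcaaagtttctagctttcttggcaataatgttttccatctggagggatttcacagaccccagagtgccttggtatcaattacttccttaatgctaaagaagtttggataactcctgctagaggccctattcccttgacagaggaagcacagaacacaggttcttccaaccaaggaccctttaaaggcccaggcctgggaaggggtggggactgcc
Lama5 promoter, chr2:180225860-180226109, minus strand: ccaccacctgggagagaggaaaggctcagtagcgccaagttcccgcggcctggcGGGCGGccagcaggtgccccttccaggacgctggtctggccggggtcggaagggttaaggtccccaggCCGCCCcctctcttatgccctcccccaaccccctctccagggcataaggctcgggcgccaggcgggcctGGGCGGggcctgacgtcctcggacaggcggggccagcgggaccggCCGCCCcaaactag
Itgb8 promoter, chr12:119238277-119238526, minus strand: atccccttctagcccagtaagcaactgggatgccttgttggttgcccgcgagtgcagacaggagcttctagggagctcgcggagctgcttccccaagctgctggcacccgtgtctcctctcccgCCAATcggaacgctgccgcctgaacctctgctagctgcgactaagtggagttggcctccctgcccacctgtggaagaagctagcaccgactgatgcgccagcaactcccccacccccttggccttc

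The Itga8 and Lama2 windows held none of these motifs. The Lama5 window held 4 GC boxes and that of Itgb8 held 1 CCAAT box. G and C made up 56.4% of the Itga8 window, 47.2% for Lama2, 72.4% for Lama5 and 62.4% for Itgb8, against a median of 52.4% over all windows. No motif of this set was found in all 3 windows of Itga8, Lama2 and Lama5. Each motif is in only 6.75 to 33.8% of all windows, so this absence says little about these genes.

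Itgb8 encodes a beta chain that pairs with alphav and is known for releasing active TGF-beta from its latent form. Its level was 1.08 CPM in the control, 2.88 in LFD-iWAT-Exos, 0.624 in LFD-vWAT-Exos, 0.664 in LFD-BAT-Exos, 2.72 in HFD-iWAT-Exos, 2.00 in HFD-vWAT-Exos and 1.55 in HFD-BAT-Exos. Both iWAT-Exos libraries were at the top, and the LFD-vWAT-Exos and LFD-BAT-Exos libraries at the bottom. HFD-vWAT-Exos was 3.21-fold (1.49 to 7.90) above LFD-vWAT-Exos, and HFD-BAT-Exos 2.34-fold (1.24 to 4.61) above LFD-BAT-Exos. The HFD-iWAT-Exos library exceeded the control 2.51-fold (1.51 to 4.28). Counts were 8 to 71 per library.

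The next question was how each exosome library compared with the control. In LFD-iWAT-Exos, 4 of 25 members were apart, against 633 of 12432 genes (5.09%). Of these, 3 were higher (3.15% of all genes) and 1 was lower (1.95%). Itga7, a laminin-binding chain that is abundant in muscle, had 5.50 CPM in the control, 15.4 in LFD-iWAT-Exos, 10.8 in LFD-vWAT-Exos, 6.90 in LFD-BAT-Exos, 9.48 in HFD-iWAT-Exos, 6.24 in HFD-vWAT-Exos and 10.3 in HFD-BAT-Exos. LFD-iWAT-Exos was the highest, 2.79-fold (2.27 to 3.45) above the control. Itgb8 was 2.66-fold (1.65 to 4.42) above the control in LFD-iWAT-Exos. Of 7 skeletal muscle markers, 5 were below 1 CPM in every library, Myod1 had no read, and their summed level was 15.0 CPM in LFD-iWAT-Exos against 14.4 CPM in the control.

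Lamb3 was the member that was lower. It had 1.49 CPM in the control, 0.689 in LFD-iWAT-Exos, 1.25 in LFD-vWAT-Exos, 1.24 in LFD-BAT-Exos, 1.11 in HFD-iWAT-Exos, 1.07 in HFD-vWAT-Exos and 1.28 in HFD-BAT-Exos. LFD-iWAT-Exos was the lowest, 2.16-fold (1.17 to 4.13) below the control on 17 against 33 counts. Only the control reached 1 CPM in that pair. With LFD-vWAT-Exos left out, 0 of 27 members were apart from all 5 other libraries in LFD-iWAT-Exos, where 52 of 12735 genes (0.408%) were. Itga7 was 1.50 to 2.79 times the level of those libraries, the nearest being HFD-BAT-Exos.

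In LFD-vWAT-Exos, 7 of 26 members were apart from the control, against 3850 of 12589 genes (30.6%). Of these, 2 were higher, among them Itgb2, where 13.2% of all genes were. Itga3, Itga8, Lama2, Lama4 and Lama5 were lower, where 17.4% of all genes were. Itga8, Lama2 and Lama5 reached 1 CPM only in the control of this pair. Against all 6 other libraries at once, 4 of 27 members were apart, Itgb2 upward and Itga8, Lama2 and Lama4 downward, against 17.9% of all genes (7.44% higher and 10.5% lower). In HFD-iWAT-Exos, 2 of 25 members were apart from the control, Itgb8 upward and Lama2 downward, against 362 of 12441 genes (2.91%). In LFD-BAT-Exos and in HFD-vWAT-Exos 0 of 25 members were apart, against 219 of 12428 genes (1.76%) and 246 of 12433 genes (1.98%). All these ratios share the control library, so their errors are not independent.

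**Figure D4:**
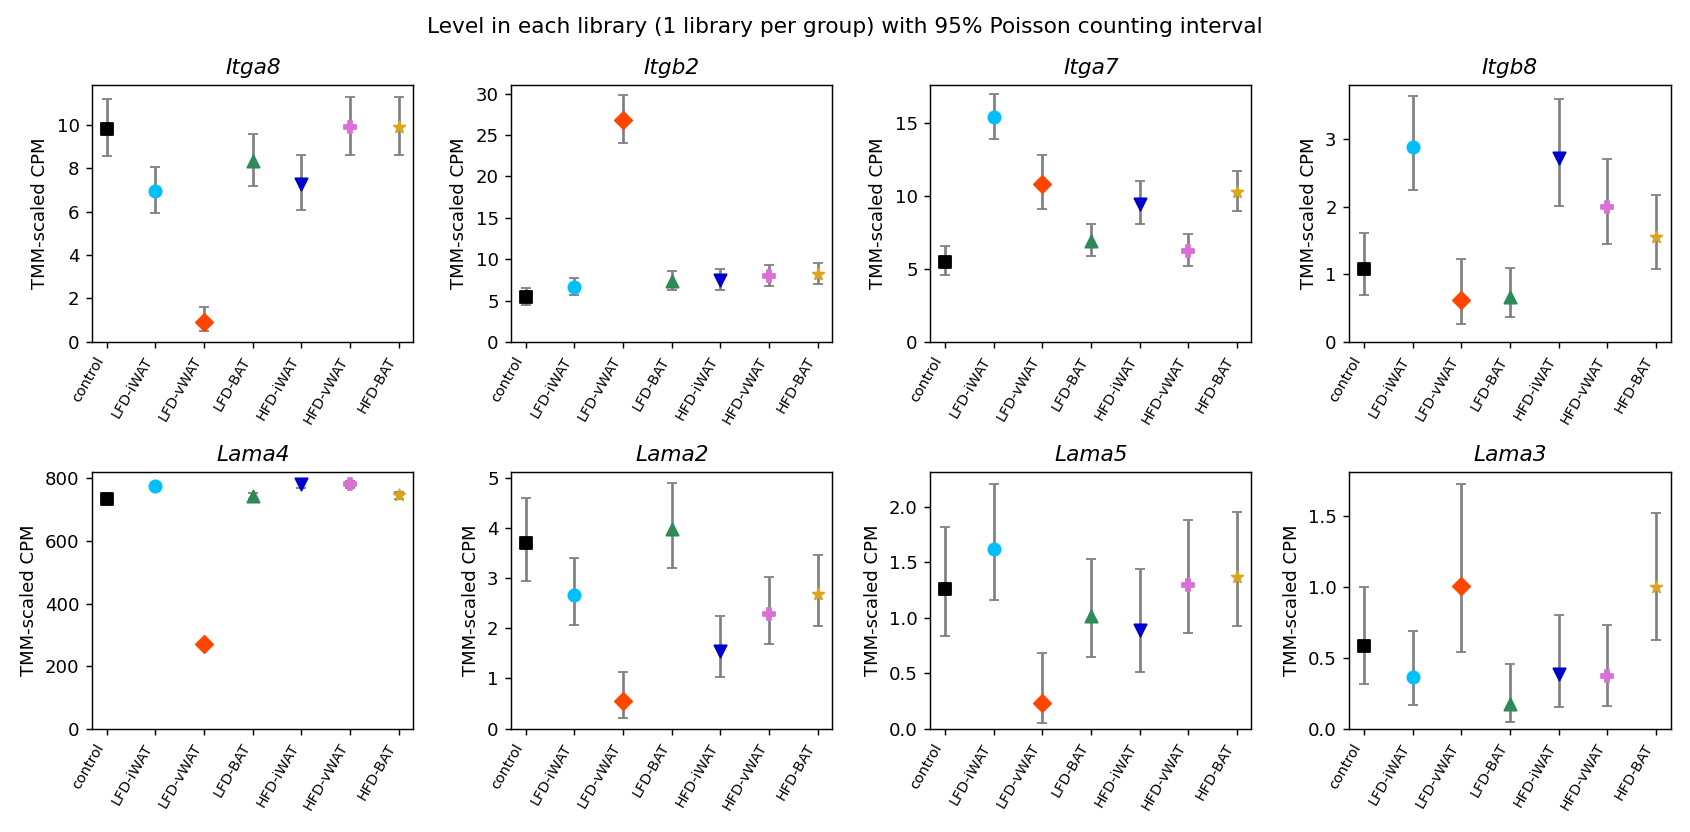
Level in TMM-scaled CPM (linear axes from 0) of 8 members in each of the 7 libraries, 1 library per group, with 95% Poisson counting intervals that cover counting error only. Itga8, Lama4, Lama2 and Lama5 are lowest in LFD-vWAT-Exos, Itgb2 is highest there, Lama3 is high there and in HFD-BAT-Exos, and Itga7 and Itgb8 are raised in LFD-iWAT-Exos relative to the control.

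The members were also compared across the libraries without LFD-vWAT-Exos. Of 22 members with at least 1 CPM in each of the other 6 libraries, 13 had a highest level under 1.5 times the lowest, against 8859 of 11793 genes (75.1%). For Itgb1 this ratio was 1.09, for Lama4 1.07, for Lamc1 1.12 and for Itga5 1.15. It was 2 or more for 4 of the 22, among them Itga7 at 2.79, Lama2 at 2.57 and Itgb7 at 2.41, and for 934 of the 11793 genes (7.92%). Itga1 ranged from 39.1 CPM in LFD-iWAT-Exos to 59.5 CPM in the control, Itga11 from 73.9 CPM in LFD-iWAT-Exos to 115 CPM in HFD-vWAT-Exos and Itga6 from 21.3 CPM in LFD-BAT-Exos to 32.1 CPM in LFD-iWAT-Exos. Itga10, a collagen receptor chain of cartilage, stayed at 3.74 to 4.91 CPM in these 6 libraries and Itgb4, the partner of alpha6 in hemidesmosomes, at 1.16 to 2.03 CPM.

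Diet, depot and exosomes as such were tested by edgeR's quasi-likelihood method across libraries. Depots or diets take the place of replicates in these fits, so the p-values measure spread over depots or over exosome types and not between cultures. The diet and depot fits left 2 residual degrees of freedom and the fit against the control 5. Without the LFD-vWAT-Exos library they left 1 and 4. Few genes of any kind passed, so an absence of calls among the members does not show equal levels. For HFD against LFD with depot as a block, 0 of 28 members passed an adjusted p of 0.05, and 0 of 13441 genes did (0.0%), with 73 genes and 0 members at an unadjusted p under 0.05. DESeq2 called 8 genes and limma-voom 0, with 0 members in each. For BAT-Exos against iWAT-Exos with diet as a block, 0 of 28 members and 0 of 13441 genes (0.0%) passed, with 124 genes and 0 members at an unadjusted p under 0.05, and DESeq2 called 2 genes and limma-voom 0. For all 6 exosome libraries against the control, 0 of 29 members passed against 1 of 14102 genes (0.00709%), with 120 genes and 0 members at an unadjusted p under 0.05, and DESeq2 called 5 genes and limma-voom 1.

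Without the LFD-vWAT-Exos library, the diet fit called 11 genes and the fit of exosome libraries against the control 11, with 0 members in each. In the fit of BAT-Exos against iWAT-Exos, the common dispersion then fell from 0.0933 to 0.0207, and 923 of 13820 genes had an unadjusted p under 0.05, with 0 called. Among 29 members, 5 had such a p, and none was called. By edgeR's quasi-likelihood test, Itgb8 differed by -1.41 ± 0.45 (log2, BAT-Exos minus iWAT-Exos, SE; adjusted p = 0.619) and Itgb7 by -0.92 ± 0.38 (adjusted p = 0.743). Itgb8 and Itgb7 were lower in the BAT-Exos than in the iWAT-Exos library on both diets. Lamc3 (adjusted p = 0.631) and Itgal (adjusted p = 0.694) rest on 17 counts or fewer per library.

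Genes around the receptors were followed with lists of adaptors, ligands and basement membrane partners. Between HFD-vWAT-Exos and LFD-vWAT-Exos, 3 of 26 focal adhesion adaptors were apart and higher and 4 were lower, near the 17.6 and 12.1% of all genes, and the median log2 ratio was 0.05, as over all genes. Fermt2, which encodes the integrin activator kindlin-2, had 656 CPM in LFD-vWAT-Exos and 175 to 202 CPM in the other libraries, Lims2 (PINCH-2) 57.0 CPM against 7.58 to 10.3 CPM, and Bcar1 (p130Cas, a docking protein) 508 CPM against 144 to 153 CPM. Lower there were Vasp, an actin filament regulator, at 28.4 CPM against 62.9 to 77.5 CPM, Tns2 (tensin-2) at 97.0 against 203 to 246 CPM and Fhl2, a LIM domain adaptor, at 52.5 against 87.3 to 123 CPM.

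Ligands and basement membrane genes were followed in the same pair. Of 18 other integrin ligands, 7 were higher and 1 lower in HFD-vWAT-Exos than in LFD-vWAT-Exos, where 17.6% of all genes were higher and 12.1% lower, and the median log2 ratio was 0.71 against 0.05 over all genes. Vcam1, a ligand of alpha4 integrins, had 45.4 CPM in LFD-vWAT-Exos and 527 to 610 CPM elsewhere. Fbn1 (fibrillin-1) had 31.6 against 147 to 209 CPM, Tgfbi 25.6 against 101 to 135 CPM and Thbs2 (thrombospondin-2) 454 against 1287 to 1576 CPM. Ctgf, a matricellular protein, was the exception at 94.6 CPM against 1.49 to 4.25 CPM. Of 14 other basement membrane genes, 6 were higher and 0 lower in HFD-vWAT-Exos, beside the same shares of all genes, with a median of 0.93. These differences from all genes were not tested. Col4a5, a collagen IV chain, had 102 CPM in LFD-vWAT-Exos and 420 to 463 CPM elsewhere, Sparc 1084 against 2737 to 3613 CPM, Agrn (agrin) 213 against 486 to 575 CPM, Col18a1 21.2 against 45.2 to 59.1 CPM and Nid2 (nidogen-2) 0.156 against 1.04 to 2.47 CPM. Of 5 other laminin receptors, Sdc1 (syndecan-1) and Cd151, a tetraspanin that binds laminin-binding integrins, were higher in HFD-vWAT-Exos and Sdc4 (syndecan-4) was lower.

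For LFD-iWAT-Exos against the control, 0 of 26 adaptors, 0 of 14 basement membrane genes and 0 of 5 other laminin receptors were apart. Of all genes, 5.09% were apart in that pair. Of 18 other ligands, 2 were higher and 1 lower, where 3.15% of all genes were higher and 1.95% lower. The lists are too short to read these counts against the shares of all genes. Spp1 (osteopontin), an RGD ligand, had 3632 CPM against 1465 CPM, a ratio of 2.48 (2.45 to 2.51). Ctgf had 4.21 against 1.49 CPM, a ratio of 2.83 (1.90 to 4.33). Postn (periostin), a ligand of alphav integrins, was 2.67-fold (2.65 to 2.70) lower, at 2085 against 5572 CPM. In LFD-vWAT-Exos Postn was at 1335 CPM, and the highest level was that of the control.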

How the data were processed

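Reads were cleaned with fastp, aligned with HISAT2 and summarised per gene with StringTie by the authors. Versions, the mouse genome build and the annotation were not given in the sources used here, and the study's methods name a human reference although cells and gene IDs are mouse. The libraries keep strand, but whether counting used it was not stated. The deposited table of raw counts holds whole numbers per gene for 7 libraries, and the deposited FPKM table, computed by the authors, scales the same genes to exon length and library total. The members, gene lists and tests were chosen with earlier results of these data known.

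Counts were scaled with edgeR 4.0.16 (R 4.3.3) TMM factors (LFD-vWAT-Exos 0.950, all others 1.00 to 1.01). Ratios of 2 libraries carry exact Clopper-Pearson 95% intervals, which cover counting error only, since PCR copies were not marked. Fits used edgeR's quasi-likelihood test after filterByExpr with Benjamini-Hochberg adjustment, and DESeq2 1.42.0 and limma-voom (limma 3.58.1) beside it. The SE was derived from the F statistic (log2 difference over its square root). Scripts were tested on simulated data. One member is not reported here by name, though counts and sums over the members include it. Each of the others is reported: with the value in each library where it was apart in any of 9 pairs, by range otherwise, and by its largest count below 1 CPM. Listed genes are named, at most 6 per list, from those apart with at least 50 counts. Alternatives were other scalings, minimum levels, FPKM, other tools and left-out libraries.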

Additional observations from a re-analysis of the deposited data

Results flagged for a closer look

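Some members had diet ratios in opposite directions in different depots, with counting intervals on opposite sides of equal levels. Lama3, Lama2 and Lama5, given first, were each apart in at least 1 depot. How many of all genes behave in this way was not counted. These differences between depots were not tested, since each group has 1 library. Lama3 had a log2 ratio of HFD to LFD of -1.24 in vWAT and 2.00 in BAT. For Lama2 the log2 ratio was 1.89 in vWAT, -0.75 in iWAT and -0.55 in BAT. For Lama5 it was 2.08 in vWAT and -0.80 in iWAT, where the interval of the ratio (0.286 to 0.999) only just left out equal levels. Other members did so with less than 2-fold in either depot. Among them were Itga7 (-0.79 in vWAT, 0.565 in BAT) and Itga6 (-0.53 in vWAT, 0.24 in BAT). Lamb1 (0.72 in vWAT, -0.13 in iWAT) and Itga11 (-0.24 in vWAT, 0.315 in iWAT) were also among them. Each of these includes the LFD-vWAT-Exos library, and the ratios within iWAT and BAT do not use it. Counts behind Lama3 were 4 to 22 per library and those behind Lama5 3 to 40.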

How the results depend on the processing

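Between single libraries, 24 member ratios were apart in the 9 pairs, none reversed under any alternative that gave a value, all 24 stayed apart with DESeq2 size factors and with no minimum, and 23 with total counts. With deposited FPKM on a log2(FPKM + 1) scale 19 of 24 were no longer past 2-fold, since most are low genes and the added 1 shrinks their ratios. The number of members apart fell from 8 to 2 under FPKM for HFD-vWAT-Exos against LFD-vWAT-Exos and to 3 with a minimum of 10 CPM. Under FPKM these were 7.69% of members against 16.0% of all genes, and at 10 CPM 17.6% against 26.1%. For LFD-vWAT-Exos against the control the number went from 7 to 2 and 4, or 7.69 and 23.5% of members against 16.8 and 26.6% of all genes. Against all 6 others it went from 4 to 2 and 2, where 9.57 and 16.2% of all genes were apart. For LFD-iWAT-Exos against the control it went from 4 to 1 under FPKM, 2 at 10 CPM and 7 with no minimum. Of all genes, 1.38, 3.0 and 6.19% were apart there. For HFD-BAT-Exos against LFD-BAT-Exos and for HFD-iWAT-Exos and HFD-BAT-Exos against the control it went to 0 under both FPKM and 10 CPM. Of all genes, 0.409 to 1.01% were apart in these. HFD-iWAT-Exos against LFD-iWAT-Exos had 1 with total counts and 1 with no minimum in place of 0, and LFD-BAT-Exos against the control 1 with no minimum. Of all genes, 2.59, 3.86 and 2.92% were apart in these. No member was called by edgeR, DESeq2 or limma-voom in any fit or alternative. Over all genes, the diet effect had 8 calls with DESeq2, 11 without the LFD-vWAT-Exos library and 0 to 12 when each depot was left out, 12 without vWAT. BAT-Exos against iWAT-Exos had 2 with DESeq2. AT-Exos against the control had 5 with DESeq2, 11 without the LFD-vWAT-Exos library and 0 to 11 when each exosome library was left out. By counts in place of FPKM, RGD-binding chains held 72.6% in place of 73.8% of the alpha subunit total in the control, and Itgb1 74.8% in place of 72.0% of the beta subunit total. No paired analysis was possible because each group has 1 library, so that replicate numbers pair nothing, and depot or diet served as blocks in the fits instead. Depth limits the low members: a count of 0 allows up to 0.234 CPM in the LFD-vWAT-Exos library. With 1 library per group, no value separates the treatment from the culture or the library.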
